A study of Mus musculus with 8 samples.

Results

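Collagens are the secreted proteins whose chains wind into a rope-like helix and build most of the fibres and sheets of the extracellular matrix. The collagen genes examined here are all probes on the array whose gene symbol is that of a collagen chain, which gave 59 probes of 37 genes among 16593 named genes. They were grouped by the structure their chains form, into 11 fibrillar, 6 basement membrane, 6 FACIT (fibril-associated collagens with interrupted helices) and 14 other chains. Members were picked by symbol alone and not by a measured value, though earlier results of these data were known when the genes were chosen.

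Gene expression had been measured on 1 Illumina beadchip in whole colons of 4 Ihh knockout mice (Villin-CreERT2-Ihhfl/fl) and 4 wildtype mice (Villin-CreERT2-Ihh+/+), all on the C57BL/6 background. Both genotypes carried the tamoxifen-inducible recombinase CreERT2, and both received 1 mg tamoxifen on each of 5 days, with colons taken at day 7. The Villin promoter restricts the recombinase to the intestinal epithelium, so Ihh was targeted in epithelial cells, whereas most collagen in the gut wall is made by other cells. No ages are given, and the titles number the colons without saying that each came from its own mouse. They were taken as 4 mice per genotype, and p-values measure only the spread between these samples.

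Fibroblasts and smooth muscle cells of the gut wall secrete fibrillar collagens, which give tensile strength, while the type IV chains form the sheet under epithelium, around vessels and around muscle cells. FACIT chains sit on the surface of fibrils. Indian hedgehog, made by the epithelium, signals to the mesenchyme beneath it, which is the tissue that lays down much of this matrix. The comparison asks whether collagen transcripts in the colon differ after the epithelial gene is targeted.

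No collagen gene passed the test between knockout and wildtype colons. Of 22 collagen genes that could be tested, 0 had a limma adjusted p under 0.05, against 0.0196% of the 10184 genes tested (2 genes). The smallest adjusted p among them was 0.437, for Col4a5. At an unadjusted limma p under 0.05, 1 collagen gene was lower in the knockout, where 4.34% of all genes were, and 0 were higher, where 6.70% of all genes were. In 0 of the 22 genes did the 4 knockout values lie wholly on 1 side of the 4 wildtype values, whereas 2.83% of all genes lay wholly below and 4.85% wholly above.

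The differences were small in most chains. On the log2 scale, knockout minus wildtype, 15 of 22 collagen genes lay below 0 and 7 above, with a median of -0.15, where 50.9% of all genes lay below 0 and their median was -0.005. Without knockout 3 the collagen median was 0.026, with 10 genes below 0, so its sign rested on that mouse. The 4 basement membrane and the 3 FACIT chains were all below 0, with medians of -0.23 and -0.27. Fibrillar chains had 3 genes below 0 and 4 above, with a median of 0.11, and the other chains had 5 below and 3 above, with a median of -0.14. The fibrillar median was negative without knockout 2 (-0.097), without knockout 4 (-0.092) and without wildtype 4 (-0.052). It was negative too with 4 other settings, down to -0.21 with array weights. With position on the beadchip as a term the FACIT median was 0.089, and with sex the median of the other chains was 0.009. Wildtypes lay at positions A to D and knockouts at E to H, so position and genotype are poorly separated in that fit. None of these class values was tested. In whole tissue, fewer cells of a type and less RNA per cell cannot be told apart.

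**Figure D1:**
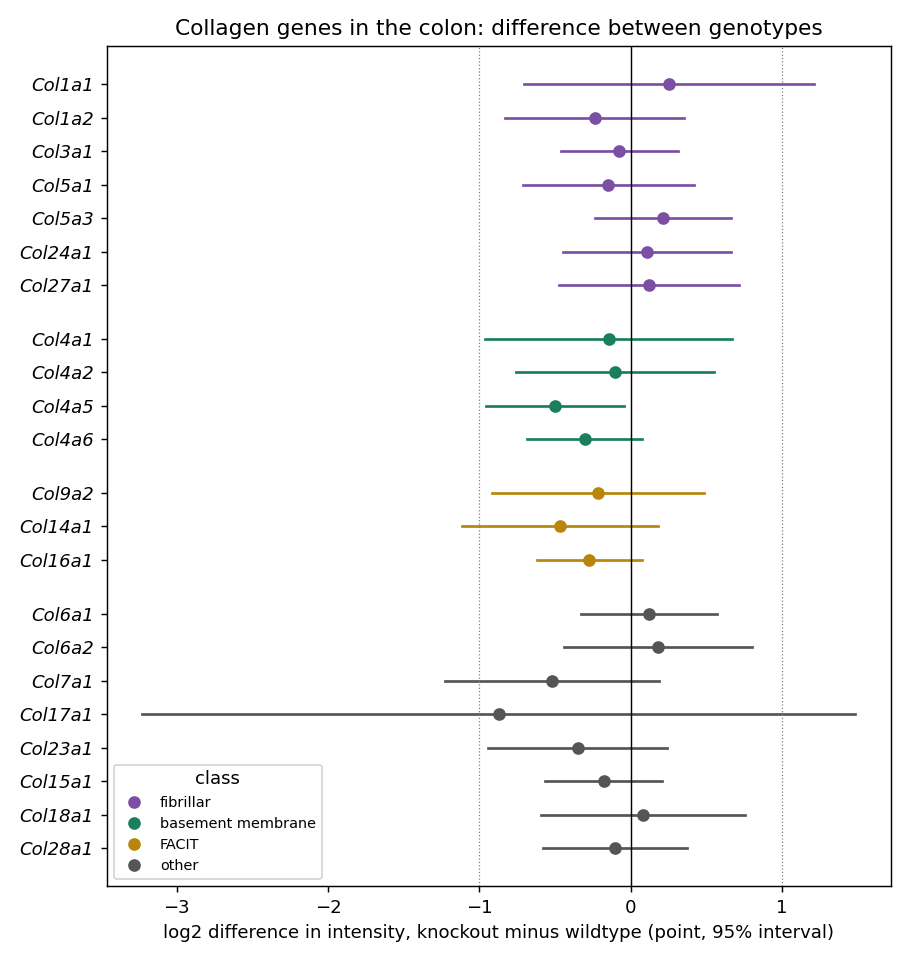
Log2 difference in normalized intensity between knockout and wildtype colons (x axis) for the 22 collagen genes tested (rows, coloured by class), with 95% limma intervals as lines and dotted lines at a log2 difference of 1 in either direction. All intervals but that of Col4a5 include 0, and that of Col17a1 is by far the widest.

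The precision behind this result differed between chains. The standard error of the log2 difference was 0.153 for Col16a1 and 1.04 for Col17a1, with a median of 0.262 over the 22 genes. The 95% interval lay within a 2-fold change in either direction for 18 genes. For Col1a1, Col14a1, Col7a1 and Col17a1 it reached past that size, so these data do not bound the difference to less than 2-fold. The 18 include dim genes, such as Col5a3, detected on 5 arrays, and Col4a6, detected on 6. Their intervals bound the intensity under this normalization only. The Col4a6 difference was -0.30 here and -0.09 with no background correction.

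The colons carried the markers of the labelled tissue, and other tissue varied between them. Markers of intestinal epithelium were measured in 8 of 8 genes, with summed intensities of 111953 to 115760 in knockout and 105954 to 117294 in wildtype colons. Of 9 smooth muscle markers 8 were measured, summing to 65545 to 104516 in knockout and 90971 to 115449 in wildtype colons. Skin and stratified epithelium markers, 12 of 16 measured, ranged from 2176 to 38267 in knockout and from 1856 to 96491 in wildtype colons. Skeletal muscle markers, 9 of 11 measured, ranged from 1580 to 24241 in knockout and from 976 to 9845 in wildtype colons. Mean probe intensity was 902 to 1258 per array, 14465 to 15040 probes were detected, and knockout 4 had the lowest mean correlation with the other arrays (0.956). The genotypes lay at separate positions of the beadchip, and by sex-linked transcripts 3 of 4 knockout and 1 of 4 wildtype mice were male. Ihh itself differed by -1.05 (SE 0.149, limma adjusted p = 0.130). All knockouts (9.027 to 9.565) lay below all wildtypes (10.167 to 10.505) on the log2 scale, as they did in 2.83% of all genes.

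The type IV chains, the network formers of basement membranes, are encoded in neighbouring pairs of genes that face away from each other. Windows from 250 bases before to 50 after the annotated start are shown for 2 such pairs, because their members were the type IV genes that could be tested. The sequences are from RefSeq, build GRCm38.p6, each given 5′ to 3′ on the strand of its gene. The windows of Col4a1 (chr8:11312777-11313076, minus strand) and Col4a2 (chr8:11312555-11312854, plus strand) share 78 bases, which are in capitals and are the reverse complement of each other.
Col4a1: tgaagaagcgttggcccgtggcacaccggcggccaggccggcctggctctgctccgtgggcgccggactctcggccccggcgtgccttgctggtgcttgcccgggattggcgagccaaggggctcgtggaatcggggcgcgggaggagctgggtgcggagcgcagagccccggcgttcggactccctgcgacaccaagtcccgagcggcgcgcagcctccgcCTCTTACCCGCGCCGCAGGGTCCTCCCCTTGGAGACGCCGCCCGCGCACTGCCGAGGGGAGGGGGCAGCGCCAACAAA
Col4a2: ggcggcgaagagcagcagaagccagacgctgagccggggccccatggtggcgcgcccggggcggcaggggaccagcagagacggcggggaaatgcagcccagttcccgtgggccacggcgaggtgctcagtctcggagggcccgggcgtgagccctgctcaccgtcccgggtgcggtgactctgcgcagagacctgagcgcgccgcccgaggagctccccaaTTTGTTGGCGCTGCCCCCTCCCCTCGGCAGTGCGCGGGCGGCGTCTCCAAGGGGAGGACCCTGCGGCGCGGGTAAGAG

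Col4a5 (chrX:141475169-141475468, plus strand) and Col4a6 (chrX:141474027-141474326, minus strand) have starts 1343 bases apart, and their windows share no base. Capitals here mark matches, on either strand, to the motifs CCAAT and GGGCGG.
Col4a5: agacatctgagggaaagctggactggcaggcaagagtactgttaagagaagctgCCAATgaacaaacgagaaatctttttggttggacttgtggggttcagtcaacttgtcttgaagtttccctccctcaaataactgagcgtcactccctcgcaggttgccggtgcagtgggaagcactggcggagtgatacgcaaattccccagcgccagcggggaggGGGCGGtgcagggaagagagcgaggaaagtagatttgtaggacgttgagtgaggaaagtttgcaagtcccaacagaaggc
Col4a6: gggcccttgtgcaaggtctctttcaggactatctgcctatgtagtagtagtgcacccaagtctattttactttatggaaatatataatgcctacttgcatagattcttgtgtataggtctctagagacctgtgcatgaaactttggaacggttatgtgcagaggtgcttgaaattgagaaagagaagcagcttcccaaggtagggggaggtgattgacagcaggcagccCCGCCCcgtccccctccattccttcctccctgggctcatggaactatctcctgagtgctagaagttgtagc

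Across the 20 tested collagen genes with an entry, GGGCGG occurred on either strand in 68.2% of 22 windows, against 35.7% of 32851 windows of all genes. CCAAT occurred in 40.9% of the collagen windows, against 37.4%, and TATAAA in 9.09%, against 13.6%. The TATAAA matches were in Col3a1 and Col17a1. These are letter matches only, and the windows of all genes were not matched for base composition. GGGCGG holds only G and C, which per collagen gene made up 37.7% (Col3a1) to 75.0% (Col5a1) of the bases. Col6a2 and Col18a1 had 2 windows each. The windows of Col4a1 and Col4a2 overlap and share a GGGCGG match, whereas their CCAAT matches are at different sites.

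Col4a5 had the smallest p of the collagen genes. Its chain forms a network with that of Col4a6 in basement membranes that include those of smooth muscle. Col4a5 had log2 intensities of 6.15, 6.71, 7.15 and 6.87 in knockouts 1 to 4, against 7.31, 7.05, 7.26 and 7.25 in wildtypes 1 to 4. Every wildtype colon but wildtype 2 lay above all knockouts, and knockout 1 was lowest. The mean was 6.72 ± 0.424 in knockout and 7.22 ± 0.115 in wildtype colons (SD, n = 4 each), a difference of -0.50 (SE 0.201, limma adjusted p = 0.437).

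Col4a6, its neighbour, was detected in 2 knockout and 4 wildtype colons. It had log2 intensities of 5.41, 5.83, 5.80 and 5.33 in the knockouts, against 5.57, 6.02, 6.10 and 5.90 in the wildtypes, and the difference was -0.30 (SE 0.169, limma adjusted p = 0.526). Wildtype 1 lay among the knockouts. A second Col4a6 probe differed by -0.35. Both genes lie on the X chromosome, and the sexes were uneven between the genotypes. With sex as a term the Col4a5 difference was -0.72 (limma adjusted p = 0.653). Adjusted for position on the beadchip it was -1.03 (limma adjusted p = 0.985). It was smaller, at -0.22, with no background correction or in the authors' deposited table, and -0.31 without knockout 1. For Col4a6 the alternatives gave -0.47 to -0.090.

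Col4a1 and Col4a2 encode the chains found in nearly all basement membranes. Col4a1 had log2 intensities of 11.44, 11.62, 10.63 and 12.58 in knockouts 1 to 4, against 11.64, 12.10, 11.72 and 11.39 in wildtypes 1 to 4. The knockouts spanned the whole range of the wildtypes and beyond on both sides, with knockout 3 lowest and knockout 4 highest. Col4a2 had 10.99, 11.19, 10.31 and 11.88 in the knockouts, against 10.98, 11.32, 11.35 and 11.13 in the wildtypes, and it was singled out after its values were seen. It ordered the 4 knockouts as Col4a1 did. The differences were -0.15 (SE 0.360) for Col4a1 and -0.10 (SE 0.288) for Col4a2, with limma adjusted p = 0.894 and 0.910. Without knockout 3 both turned positive, to 0.17 and 0.16. Col4a3 and Col4a4, which join Col4a5 in the kidney filter, were detected on 0 of 8 arrays.

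**Figure D2:**
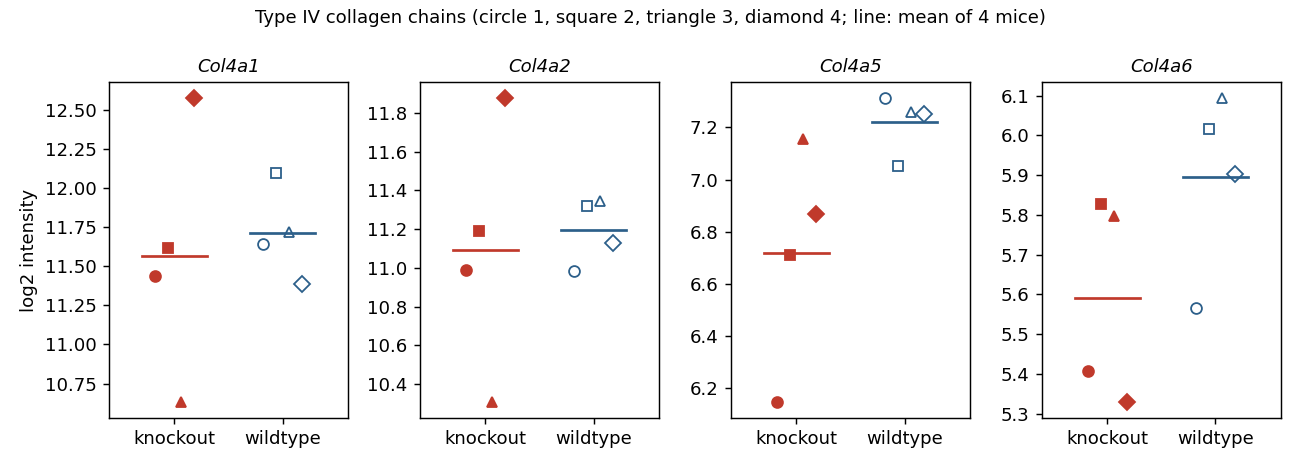
Log2 intensity (y axis, own scale per panel) of the 4 type IV chains tested, with knockout mice left and wildtype mice right; each symbol is 1 mouse and lines are means of 4 mice. Knockout 3 is lowest and knockout 4 highest for Col4a1 and Col4a2, while for Col4a5 and Col4a6 the knockout means lie 0.50 and 0.30 lower.

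The fibrillar chains were measured in 7 of 11 genes. Col3a1, which forms the thin pliable fibrils of the gut and vessel wall, had log2 intensities of 11.15, 11.50, 11.12 and 11.76 in the knockouts, against 11.46, 11.58, 11.58 and 11.20 in the wildtypes. The groups overlapped throughout, and the difference was -0.075 (SE 0.171, limma adjusted p = 0.884), with a 95% interval of -0.46 to 0.31. Its second probe differed by -0.32.

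Type I collagen, the main fibre of connective tissue, joins chains from Col1a1 and Col1a2. Col1a2 had 9.53, 9.93, 9.06 and 10.38 in the knockouts, against 10.03, 10.20, 9.70 and 9.92 in the wildtypes, a difference of -0.24 (SE 0.261, limma adjusted p = 0.732). Without knockout 3 it was -0.017, and without knockout 4 it was -0.46. Col1a1, singled out as its partner after the values were seen, had 10.28, 10.66, 9.82 and 11.64 in the knockouts, against 10.37, 10.96, 10.63 and 9.43 in the wildtypes. Its difference of 0.25 (SE 0.424, limma adjusted p = 0.830) lay above 0, with wildtype 4 lowest and knockout 4 highest of all mice. Without knockout 4 it was -0.092, and without wildtype 4 -0.052.

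Among the minor fibrillar chains, which are built into or regulate larger fibrils, Col5a3 had the smallest p. It was detected in 3 knockout and 2 wildtype colons, with log2 intensities of 5.82, 5.71, 5.13 and 5.92 in the knockouts, against 5.49, 5.55, 5.62 and 5.08 in the wildtypes. Knockouts 1, 2 and 4 lay above all wildtypes and knockout 3 near the lowest, and the difference was 0.21 (SE 0.198, limma adjusted p = 0.685). Col5a1, whose chain starts fibril assembly, differed by -0.15 (SE 0.250), with a spread of 0.552 among the knockouts and 0.143 among the wildtypes (SD, n = 4 each). Col24a1 and Col27a1 differed by 0.11 (SE 0.245) and 0.12 (SE 0.262).

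Whether partner chains shifted relative to each other was tested within each mouse, for 4 pairs picked after the values were seen. The log2 ratio of Col1a1 to Col1a2 averaged 0.88 in knockout and 0.38 in wildtype colons. The difference of 0.49 gave an exact permutation p of 0.286 (two-sided, 0.800 after Benjamini-Hochberg adjustment over the 4 pairs), where 0.0286 is the smallest p possible. The ratio of Col4a1 to Col4a2 differed by -0.042 (exact p = 0.800). That of Col4a5 to Col4a6 differed by -0.20 (exact p = 0.486) and that of Col6a1 to Col6a2 by -0.059 (exact p = 0.686). Each had a Benjamini-Hochberg adjusted p of 0.800. After adjustment over the 4 pairs, a lone shifted pair could not have passed the threshold, even at the smallest possible p. The adjusted p-values therefore do not show whether any single ratio was stable.

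FACIT chains link fibrils to each other and to other matrix, and 3 of 6 could be tested. Col16a1 was detected on all arrays and had log2 intensities of 10.75, 11.20, 10.78 and 10.60 in the knockouts, against 10.90, 11.24, 11.10 and 11.20 in the wildtypes. Knockouts 1, 3 and 4 lay below all wildtypes, while knockout 2 lay among them, at 11.20. The difference was -0.27 (SE 0.153, limma adjusted p = 0.526).

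Col14a1, which coats fibrils and limits their growth, had 6.57, 6.72, 6.08 and 5.39 in the knockouts, against 6.25, 6.89, 6.72 and 6.78 in the wildtypes. Knockout 4 was the lowest, and the difference was -0.47 (SE 0.286, limma adjusted p = 0.552). Without knockout 4 it was -0.20. Col9a2, a chain best known from cartilage, differed by -0.22 (SE 0.309). With array position as a term, which largely followed genotype, Col14a1 and Col9a2 turned to 0.089 and 0.22 (limma adjusted p = 0.995 and 0.987).

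Type VI collagen forms beaded filaments around cells, and Col6a1 and Col6a2 encode chains of it. Col6a1 had log2 intensities of 12.45, 12.65, 12.20 and 13.07 in the knockouts, against 12.27, 12.52, 12.78 and 12.32 in the wildtypes. The groups overlapped, with a difference of 0.12 (SE 0.199, limma adjusted p = 0.83), and a second probe of the gene gave -0.043. Col6a2 differed by 0.18 (SE 0.275, limma adjusted p = 0.813). Without knockout 4 both were slightly negative, at -0.038 and -0.043.

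Col17a1 and Col7a1 belong to the junction between stratified epithelium and its underlying tissue. Col17a1 encodes a transmembrane chain of hemidesmosomes in skin, and it was singled out after its values were seen. It had log2 intensities of 6.62, 8.01, 4.87 and 7.71 in the knockouts, against 4.74, 7.93, 8.28 and 9.74 in the wildtypes. Knockout 3 and wildtype 1 were below detection and wildtype 4 was highest, and the difference was -0.87 (SE 1.04, limma adjusted p = 0.754).

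Krt5, a keratin of basal skin cells, had 6.07, 7.23, 5.25 and 6.82 in the knockouts, against 5.13, 7.82, 7.08 and 9.75 in the wildtypes. Krt5 ordered the 4 knockouts as Col17a1 did, and among the wildtypes both were lowest in wildtype 1 and highest in wildtype 4. Most tested markers of the skin list were highest of all mice in wildtype 4, among them Krt1 (10.13) and Krt10 (14.89). Several others were not, among them Sbsn, at 8.08 in wildtype 2 and 7.23 in wildtype 4. Adjusted for the skin and skeletal muscle scores of each mouse, the Col17a1 difference was -0.10 (limma adjusted p = 0.909), and with sex as a term it was 0.043. Adjusted for position, which largely followed genotype, it was -3.97 (limma adjusted p = 0.985). Leaving out each mouse in turn gave -1.85 (without wildtype 1) to -0.18 (without wildtype 4), with -0.23 without knockout 3 and -1.28 without knockout 2. As a list, 12 of 12 skin markers were below 0 with a median of -0.78, and 0 were called. Of all genes, 50.9% were below 0 and 0.0196% were called.

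Col7a1, whose chain forms the anchoring fibrils of skin, had 5.77, 6.49, 5.98 and 6.74 in the knockouts, against 6.62, 6.14, 6.77 and 7.53 in the wildtypes. Wildtype 4 was again highest, knockout 1 was lowest, and the difference was -0.52 (SE 0.313, limma adjusted p = 0.546). Adjusted for both scores it was -0.37, and adjusted for position -1.67 (limma adjusted p = 0.985 for position). With no background correction it was -0.21, and without wildtype 4 it was -0.26. The part of skin or other stratified epithelium in these differences was not tested.

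**Figure D3:**
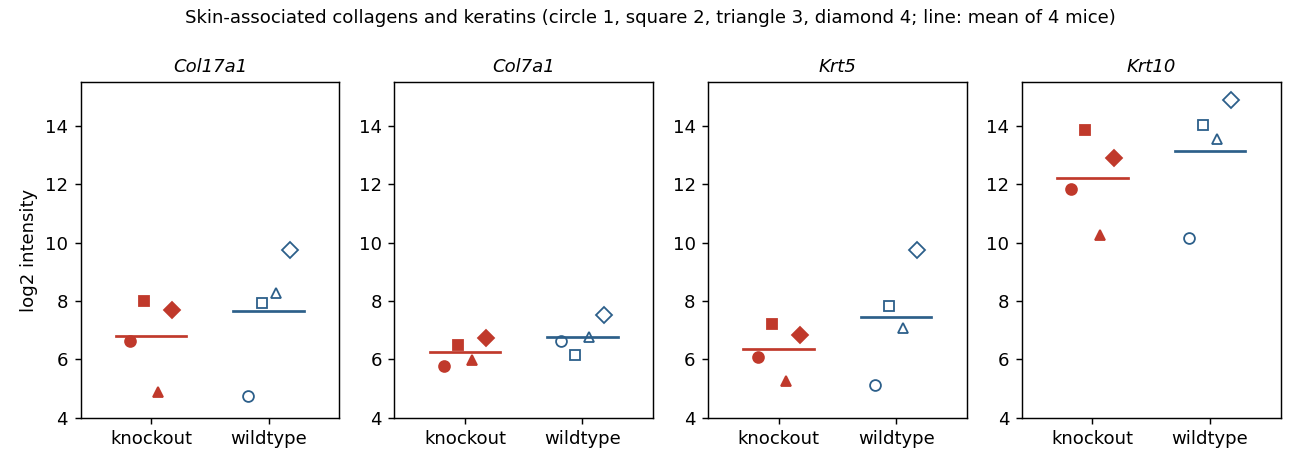
Log2 intensity (y axis, common scale) of Col17a1, Col7a1 and the skin keratins Krt5 and Krt10, with knockout mice left and wildtype mice right; each symbol is 1 mouse and lines are means of 4 mice. Wildtype 4 is highest in all 4 panels, and wildtype 1 and knockout 3 are the lowest of their genotype for Col17a1, Krt5 and Krt10.

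Col23a1, a transmembrane chain, had 7.39, 6.65, 6.35 and 6.07 in the knockouts, against 7.02, 7.09, 6.68 and 7.07 in the wildtypes, with knockout 1 highest of all mice. It differed by -0.35 (SE 0.263, limma adjusted p = 0.613). Col15a1 and Col18a1 encode the multiplexins, collagens of the basement membrane zone with long sugar chains. Col15a1 differed by -0.18 (SE 0.171, limma adjusted p = 0.693) and Col18a1, the precursor of endostatin, by 0.082 (SE 0.299, limma adjusted p = 0.934). Without knockout 4, Col18a1 turned to -0.26. Col28a1 was detected in 2 knockout and 4 wildtype colons and differed by -0.10 (SE 0.211).

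Collagen values spread more widely among the knockouts. The SD was larger in knockout than in wildtype colons in 18 of 22 collagen genes (81.8%), where 57.4% of all genes had it so. The median SD of the collagen genes was 0.525 in knockout and 0.232 in wildtype colons, against 0.230 and 0.199 over all genes. Knockout 3 was the lowest knockout in 14 of 22 genes and knockout 4 the highest in 12. Without knockout 4 the knockout SD was the larger in 68.2% of the collagen genes and 40.8% of all genes, and without knockout 3 in 77.3% and 54.6%. These shares were not tested.

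The mean collagen score of a mouse, its average deviation from each gene's mean over the 8 mice, was -0.12, 0.098, -0.50 and 0.22 in knockouts 1 to 4, against -0.091, 0.17, 0.17 and 0.064 in wildtypes 1 to 4. Knockout 3 stood lowest. The fibroblast marker score was -0.11, 0.25, -0.38 and -0.023 in the knockouts, against -0.093, -0.022, 0.18 and 0.21 in the wildtypes, and it too was lowest in knockout 3. The smooth muscle score was 0.060, 0.17, -0.55 and -0.50 in the knockouts, against 0.024, 0.38, 0.27 and 0.15 in the wildtypes. Knockout 4, highest in the collagen score, was thus next to the lowest in smooth muscle. The part of these cell types in the collagen values was not tested.

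**Figure D4:**
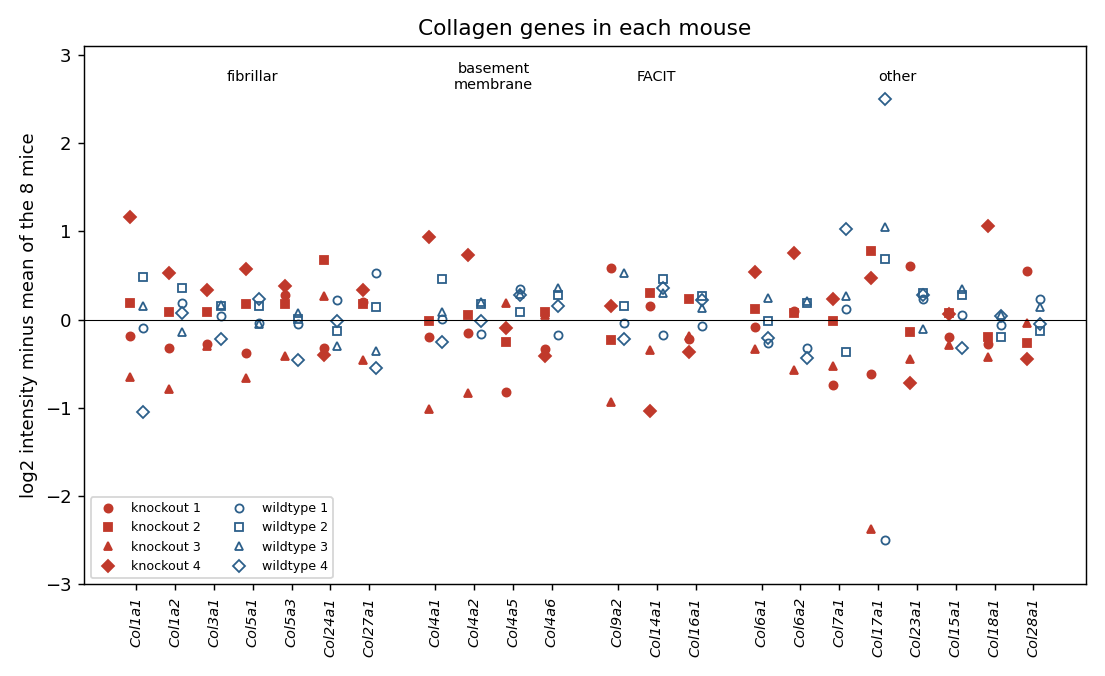
Log2 intensity of the 22 collagen genes in each mouse after each gene's mean over the 8 mice was subtracted (y axis), by class, with knockouts as filled and wildtypes as open symbols. The genotypes overlap in every gene, and knockout 4 (filled diamonds) and knockout 3 (filled triangles) are at the ends in many.

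The other 15 collagen genes could not be tested. None of their probes was detected on at least 4 arrays, and for 10 genes it was 0 of 8. These were Col11a1, Col4a3, Col4a4, Col9a3, Col19a1, Col6a6, Col8a2, Col10a1, Col13a1 and Col26a1. Col5a2 and Col25a1 reached detection on 1 array, Col9a1 on 2, and Col2a1 and Col11a2 on 3. Several of these, such as Col2a1, Col9a1 and Col11a1, are chains of cartilage. Of 9 cartilage and bone markers on the array, 8 were not detected on enough arrays to be tested. The remaining one, Bglap, was detected on 8 of 8 arrays, and the cartilage chain Col9a2 on 7. Whether a transcript was absent or its probe weak was not tested. The share of collagen genes tested was 59.5%, against 61.4% of all genes on the array.

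Collagen chains need enzymes and chaperones in the secretory route, and none of these passed either. Of 17 tested genes for chain modification and folding, 8 were above 0 and 9 below, with a median of 0.000. Pdia3, a disulfide isomerase, had log2 intensities of 13.62, 13.59, 13.65 and 14.14 in the knockouts, against 13.39, 13.50, 13.55 and 13.35 in the wildtypes. All knockouts lay above all wildtypes, as they did in 4.85% of all genes. The difference was 0.30 (SE 0.145, limma adjusted p = 0.479). P4hb, a subunit of prolyl hydroxylase, differed by 0.19, Colgalt1, which adds galactose, by 0.19 and P3h2, a prolyl hydroxylase, by -0.26.

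Outside the cell, 9 genes for trimming or cross-linking collagen, enzymes and enhancer proteins, were tested, with 3 above 0, 6 below and a median of -0.21. Tgm2, a cross-linking transglutaminase, differed by -0.21 (SE 0.129), Bmp1, which removes the C-terminal propeptide, by -0.24, and Loxl2, a cross-linking oxidase, by 0.36 (SE 0.264). Mep1a, a brush border protease, differed by -0.85 (SE 0.677), with knockout 4 at 8.495 and the other 7 colons between 11.58 and 12.01.

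Collagen receptors were below 0 in 4 of 7 tested genes, with a median of -0.25. Itga11, the integrin chain by which fibroblasts hold fibrillar collagen, had 8.58, 8.67, 8.47 and 8.12 in the knockouts, against 8.81, 8.80, 8.68 and 8.92 in the wildtypes. All knockouts lay below all wildtypes, as they did in 2.83% of all genes. The difference was -0.34 (SE 0.140, limma adjusted p = 0.440). Itga1, an integrin chain that prefers type IV collagen, differed by -0.37 (SE 0.179, limma adjusted p = 0.479).

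Proteoglycans that bind collagen fibrils were below 0 in 7 of 7 tested genes, with a median of -0.22, and 0 were called. Of all genes, 50.9% were below 0 and 0.0196% were called. Aspn had the smallest p, with a difference of -0.59 (SE 0.192, limma adjusted p = 0.387), and it was detected on 4 of 8 arrays. Ogn, known as mimecan, differed by -0.47 (SE 0.217) and Lum, which spaces fibrils, by -0.31 (SE 0.207). Smooth muscle markers were below 0 in 8 of 8 genes with a median of -0.47. Of 12 laminins and other basement membrane partners, 10 were below 0, with a median of -0.11 and Lamb2 at -0.23 (SE 0.128). Fibroblast markers were below 0 in 8 of 10 genes with a median of -0.18, and 0 were called. Knockout 3 had the lowest score of all mice in each of these lists. It stood at -0.41 for the proteoglycans, -0.55 for smooth muscle, -0.31 for the basement membrane partners and -0.38 for fibroblasts. These list counts were not tested.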

How the data were processed

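Whole-colon RNA was amplified (Illumina TotalPrep) and carried the Cy3 dye, per the labels' protocols. The submitters' processing notes name GenomeStudio. The deposited table gives a linear signal intensity and a detection p-value per probe and array, per the file headers. No background subtraction was taken to have been made, since the lowest values of every array lie far above 0. A second deposited table of normalized intensity matched a quantile normalization of the raw values within 0.0278 on the log2 scale.

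Of 25697 probes, 23978 had 1 gene symbol in the platform annotation, 0 had several and 1719 had none. Through RefSeq's GRCm38.p6 gene table, 23962 probes were matched and 0 symbols changed. Values were corrected and quantile normalized with neqc (offset 16) in limma 3.58.1 and R 4.3.3. The 14754 probes detected (p under 0.05) on 4 or more arrays, 29 of them collagen probes, were fitted together with lmFit and eBayes, genotype being the only term, and p-values were adjusted over all of them by the method of Benjamini and Hochberg (two-sided, threshold 0.05). A gene is its tested probe with the highest mean. The number of arrays limits the precision. The fit was tested on simulated data.

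The collagen genes, classes and lists were chosen with earlier results of these data known. Every tested collagen gene is named. Values in each mouse are given for those whose genotypes do not overlap and, per class, for the 2 with the smallest p and the one with the highest mean, and for others where said. Up to 4 genes of each other list were named by smallest p, with Ihh. No protein sequences were used here.

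The alternatives were other normalizations, other filters on dim probes, the replicate number as a block, terms for array position, sex, or skeletal muscle and skin scores, array weights, averaging the probes of a gene, another variance prior, and leaving out each mouse.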

Additional observations from a re-analysis of the deposited data

Results flagged for a closer look

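Among 44 sets of 4 mice (22 collagen genes in both genotypes), 2 had a mouse far from the other 3, where chance gives about 5% of sets. Col18a1 was at a log2 intensity of 11.995 in knockout 4, and between 10.51 and 10.73 in the other knockouts. Col23a1 was at 6.68 in wildtype 3, and between 7.02 and 7.09 in the other wildtypes.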

How the results depend on the processing

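Across 21 alternatives to the fit, 0 collagen genes were called, with a smallest limma adjusted p per setting of 0.297 (array weights) to 0.985 (array position), and 7 of 22 genes kept their sign in every setting that tested them. Of these 7, Col5a3, Col4a5, Col4a6 and Col7a1 were not tested under the strict filter. The number below 0 was 25 of 37 with no filter on dim probes and 8 of 13 with the strict filter, since the number of genes tested changed. Leaving out each mouse in turn gave 10 to 18 genes below 0. Over the same settings the collagen median was -0.21 to 0.026, the fibrillar median -0.097 to 0.20, the basement membrane median -0.43 to -0.11, the FACIT median -0.45 to -0.20 and the median of the other chains -0.22 to -0.083. The fibrillar median turned to -0.075 with the strict filter, -0.11 with sex, -0.051 with the marker scores and -0.21 with array weights. The median of the other chains turned to 0.082 with the strict filter and 0.009 with sex. With array position the FACIT median was 0.089 and the basement membrane median -0.51. Position largely followed genotype, which limits that fit. With array weights the basement membrane median was -0.39. For these turns the cause was not tested.

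Single genes turned sign as follows. With array position, Col9a2 was at 0.22, Col14a1 at 0.089, Col6a1 at -0.24, Col6a2 at -0.025, Col23a1 at 0.56, Col18a1 at -0.79 and Col28a1 at 0.57. With sex, Col24a1 was at -0.11, Col27a1 at -0.029, Col9a2 at 0.065, Col17a1 at 0.043, Col18a1 at -0.017 and Col28a1 at 0.034. With the marker scores of skin and skeletal muscle, Col1a1 was at -0.051 and Col27a1 at -0.044. With array weights, Col1a1 was at -0.21, Col6a1 at -0.013, Col6a2 at -0.025, Col18a1 at -0.11 and Col28a1 at 0.12. Leaving out 1 mouse gave -0.092 to 0.51 for Col1a1, -0.20 to 0.013 for Col3a1, -0.36 to 0.046 for Col5a1, -0.097 to 0.26 for Col24a1, -0.041 to 0.32 for Col27a1, -0.48 to 0.17 for Col4a1, -0.37 to 0.16 for Col4a2, -0.45 to 0.061 for Col9a2, -0.038 to 0.25 for Col6a1, -0.043 to 0.40 for Col6a2, -0.26 to 0.24 for Col18a1 and -0.30 to 0.028 for Col28a1.

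With the replicate number as a block 0 collagen genes were called, 15 were below 0 and the median was -0.15. Same-numbered mice correlated at 0.136, 0.21, -0.178 and -0.038 in their deviations, so the numbers were not taken as pairs, and 2 of 4 knockouts and 1 of 4 wildtypes correlated best with their own number. The number of mice limits what could be called, and signal near background limits the 6 tested genes not detected on all arrays.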

Other observations

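Probes of the same collagen gene did not always detect it together. Of the tested collagen genes, 5 (Col24a1, Col4a6, Col6a1, Col7a1 and Col18a1) had a further probe that was detected on 0 of 8 arrays. Among 6 genes with several tested probes, the probes of Col6a1 differed in sign, at 0.12 and -0.043, and those of the other 5 had the same sign. The 3 tested Col17a1 probes differed by -0.87, -0.58 and -0.29, and the 2 of Col18a1 by 0.082 and 0.28.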
